A study of Homo sapiens with 12 samples.

Results

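The response to interferon beta (IFNB) was measured in the control line of a CRISPR interference experiment, as the difference between treated and untreated cells over every expressed gene. The members were chosen by their labels alone: the 2 libraries of GFP-guide cells given IFNB and the 2 libraries of untreated GFP-guide cells, 4 of the 12 libraries of the study. HT1080 is an established human fibrosarcoma line. All cells of the study stably carried dCas9, a Cas9 that binds DNA without cutting it and is used in CRISPR interference to silence a target, and all were grown under blasticidin, which selects for dCas9, and puromycin, which selects for the guide RNA. The control genotype, dCas9_CRISPRi_GFP, carried a guide against GFP, the jellyfish fluorescent protein. The other genotype, dCas9_CRISPRi_LTR8B.SP140, carried a guide against the retroviral repeat LTR8B at the gene SP140 and had 4 untreated and 4 IFNB libraries. Treated cells received IFNB at 10 U/mL for 4 h, and each line had its own untreated cells. The labels do not say whether replicates were separate cultures or whether a line was 1 clone, so each p-value is set against the spread of these libraries alone, which may be technical.

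IFNB is a type I interferon. It binds a receptor made of IFNAR1 and IFNAR2, whose bound kinases JAK1 and TYK2 phosphorylate STAT proteins, STAT2 among them. These join IRF9 to form ISGF3, a transcription factor that binds a promoter element called the ISRE (interferon-stimulated response element) and switches on the interferon-stimulated genes, many of which block steps of viral replication, alert immune cells or feed back on the pathway itself. A related element, the GAS (gamma-activated site), is bound by STAT pairs.

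Polyadenylated RNA was counted per gene, with 20153678 to 26042371 counts in each of the 4 GFP libraries and 12404270 to 28801579 over all 12. Levels are given as CPM (counts per 1000000 counts, after TMM scaling between libraries) and are compared within a gene only. The mesenchymal markers VIM and MMP14 stood at mean levels of 3378 and 2036 CPM in untreated GFP-guide cells, while PTPRC, the pan-leukocyte gene, had 1 count in the untreated and 0 in the treated pair. CDH1 and EPCAM, epithelial genes, had 3 and 4 counts in the untreated pair and 0 and 3 in the treated pair. Of the lists of other cell types, 3 of 10 epithelial, 7 of 14 haematopoietic and 7 of 10 endothelial and neural markers passed the filter on low counts, KRT8, KRT18 and LCP1 among them at high levels, and 1 of these 17 changed, MAP2. The share of counts from the mitochondrial genome was 3.69% to 4.10% in the GFP libraries. SP140, the gene at the LTR8B guide's target, had 1.25 ± 0.57 CPM (SD, n = 4) in untreated LTR8B-guide cells against 30.3 ± 0.728 CPM (SD, n = 2) in untreated GFP-guide cells, which matches the labels.

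After 4 h of IFNB, 502 of 16393 tested genes were higher and 22 were lower in GFP-guide cells at an adjusted p under 0.05 (edgeR's quasi-likelihood test with Benjamini-Hochberg adjustment). That is 3.2% of the tested genes in all, 3.06% higher and 0.134% lower. The fitted increase was at least 2-fold for 247 genes, at least 4-fold for 130, at least 16-fold for 51 and at least 64-fold for 18. With the 4 genes that had 0 counts in both untreated libraries held at their lower bound, the last 2 counts were 49 and 14. The median log2 change was 0.97 over the genes that rose and -0.53 over those that fell, against -0.01 over all tested genes. In each of the 502 and the 22, the 2 treated libraries did not overlap the 2 untreated ones, which held for 44.5% of all tested genes. The genes that rose took 2.04% and 2.05% of all counts in the untreated libraries and 5.19% and 5.21% with IFNB. Leaving out untreated replicate 1 lowered the number past the threshold to 344, and leaving out the other GFP libraries gave 351 to 459. These are bulk samples, in which more cells responding and more RNA per responding cell cannot be told apart.

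**Figure D1:**
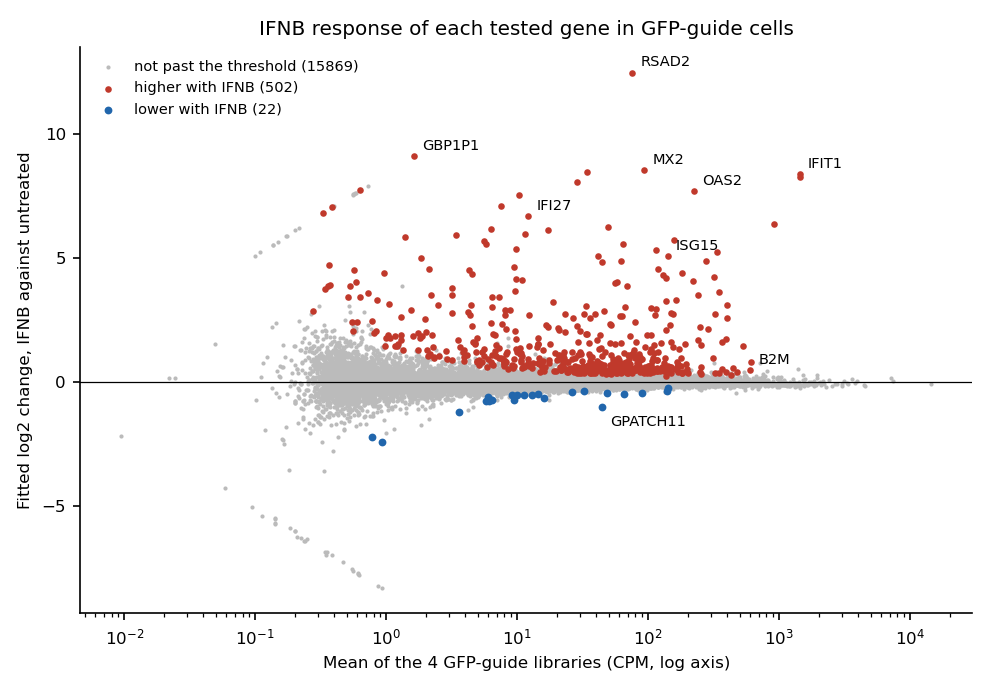
Fitted log2 change with IFNB (vertical axis) against the mean CPM of the 4 GFP-guide libraries (horizontal log axis), 1 point per tested gene. The 502 genes that rose reach a fitted log2 change of 12.45, at RSAD2, and the 22 that fell have a median of -0.53. The slanted streaks at low CPM are genes with 0 counts in a whole group, where the fitted value depends on the prior count and is no measured fold.

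Among the genes that rose, the median fitted increase was larger where the level before treatment was lower. That level is also the denominator of the fold, so this order may be built in. Among genes under 1 CPM in untreated cells, 70 of 2648 rose (2.64%), each by at least 2-fold, with a median log2 change of 3.51. From 1 to 10 CPM 127 of 4111 rose (3.09%, median 1.33), and from 10 to 100 CPM 258 of 7438 rose (3.47%, median 0.69). Above 100 CPM 47 of 2196 rose (2.14%, median 0.54), 7 of them by at least 2-fold. A low gene had to change by more to pass the test. A gene with almost no untreated GFP counts was tested only if another group passed the filter on low counts. For these reasons the medians are not compared across these levels by a test, and no trait of the response is read from them. By annotated class, 464 of 13107 protein-coding genes (3.54%), 25 of 2221 long noncoding genes (1.13%) and 9 of 658 pseudogenes (1.37%) rose.

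Promoter sequences were searched for the ISRE core because the increases can be set beside it. The core was written as GAAANNGAAA and searched on both strands, where the other strand reads TTTCNNTTTC, in RefSeq promoters of the GRCh38.p14 build, from 250 bases before to 50 bases after each gene's start. The genes below were picked after the match was seen, to show what it looks like in genes with large increases. Each line holds bases upstream of the start, 5′ to 3′ along the gene, and the capitals mark every match that lies whole within the stretch.
RSAD2: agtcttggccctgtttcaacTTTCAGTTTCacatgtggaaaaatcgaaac
IFIT1: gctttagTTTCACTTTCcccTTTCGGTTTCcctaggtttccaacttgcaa
IFIT3: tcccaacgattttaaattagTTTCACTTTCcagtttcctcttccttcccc
IFI27: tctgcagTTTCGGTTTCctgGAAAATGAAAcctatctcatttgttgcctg
CXCL10: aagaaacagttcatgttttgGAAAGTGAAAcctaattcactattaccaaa
ISG15: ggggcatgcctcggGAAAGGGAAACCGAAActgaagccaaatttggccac
The stretches lie at chr2:6877612-6877661 on the plus strand for RSAD2, chr10:89392500-89392549 (plus) for IFIT1, chr10:89327855-89327904 (plus) for IFIT3, chr14:94110621-94110670 (plus) for IFI27, chr4:76023689-76023738 (minus) for CXCL10 and chr1:1013370-1013419 (plus) for ISG15. The stretches of IFIT1, IFI27 and ISG15 each hold 2 matches, which overlap in ISG15. The match begins 145 bases before the start of RSAD2, 122 before IFIT3 and 221 before CXCL10, and the matches begin 116 and 103 bases before IFIT1, 108 and 95 before IFI27 and 113 and 107 before ISG15. RSAD2, IFIT3 and IFI27 have 2 listed starts, and the distance is to that of the promoter shown. The promoter shown for IFIT3 has another match outside the stretch, 156 bases before the start, and its other listed promoter also has matches.

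Over the 11400 tested genes with a listed promoter, 4.08% had the ISRE core in at least 1 promoter. The share was 24.5% of the genes that rose (94 of 383), 0 of the 14 that fell and 3.37% of those not past the threshold (371 of 11003). Within the genes that rose it climbed with the fitted fold, from 15.4% under 2-fold (33 of 214) and 18.3% from 2- to 4-fold (15 of 82) to 42.6% from 4- to 16-fold (23 of 54) and 69.7% at 16-fold or more (23 of 33). Of all 16533 promoters searched, 3.02% held the core and 6.41% held the GAS, written as TTCNNNGAA, which reads the same on both strands. The GAS was found in 15.7% of the genes that rose and 8.48% of those not past the threshold, with 9.81% under 2-fold, 18.3% from 2- to 4-fold, 33.3% from 4- to 16-fold and 18.2% at 16-fold or more. A gene with both elements counts under each, also where they overlap. Of the ISRE matches in promoters of genes that rose, 68 of 136 (50%) began within 100 bases before the start, against 145 of 419 (34.6%) for genes not past the threshold. Matches are counted once per listed promoter, so a site in overlapping promoters of 1 gene counts more than once. Each match is a stretch of letters, with no measurement of binding in these data.

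**Figure D2:**
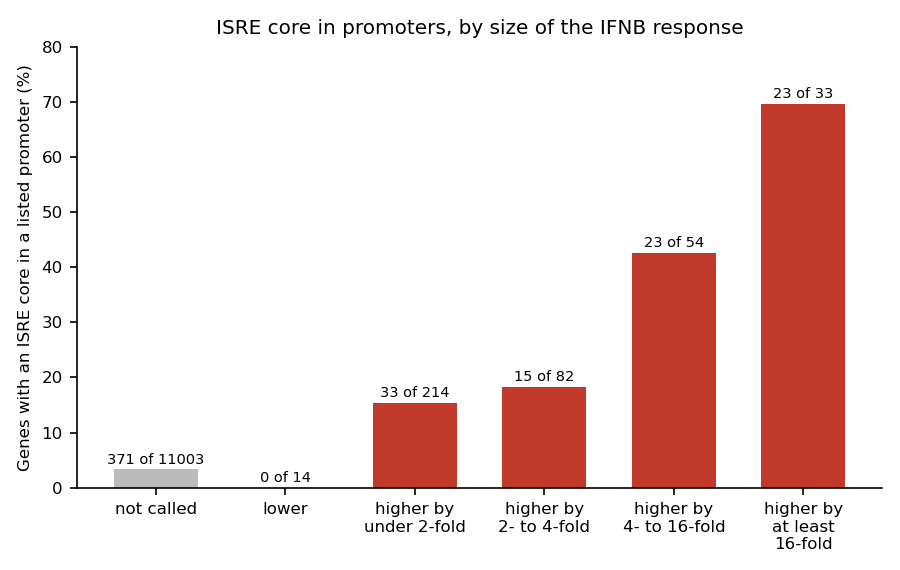
Percent of genes with an ISRE core in at least 1 listed promoter (bars, vertical axis from 0), by the gene's fitted IFNB response in GFP-guide cells, with the genes that have it, of all genes of the class, above each bar. The share runs from 3.37% of genes not called to 69.7% of genes higher by at least 16-fold.

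The pathway's own transcription factors rose, while the change of its receptor and kinases did not pass the test. STAT2 (chr12:56341597-56360155) went from 46.2 and 52.8 CPM to 250 and 241 CPM, a log2 change of 2.31 (SE 0.10, adjusted p = 1.01e-11, edgeR). Each SE in this text is the absolute log2 change divided by the square root of the test's F statistic. It is approximate, and can be too small for large changes from few untreated counts. IRF9 (ENSG00000213928.9, chr14:24161053-24166565), the DNA-binding partner that completes ISGF3, went from 4.65 and 3.49 CPM to 125 and 115 CPM, a log2 change of 4.86 (SE 0.15, adjusted p = 8.29e-14). In both the treated libraries lay far above both untreated ones. The receptor genes IFNAR1 and IFNAR2 had log2 changes of 0.21 (adjusted p = 0.575) and 0.27 (adjusted p = 0.411), and the kinase genes JAK1 and TYK2 of 0.01 and -0.11. So 3 of the 7 genes of the receptor and ISGF3 list rose, none fell, and the list's median was 0.27.

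**Figure D3:**
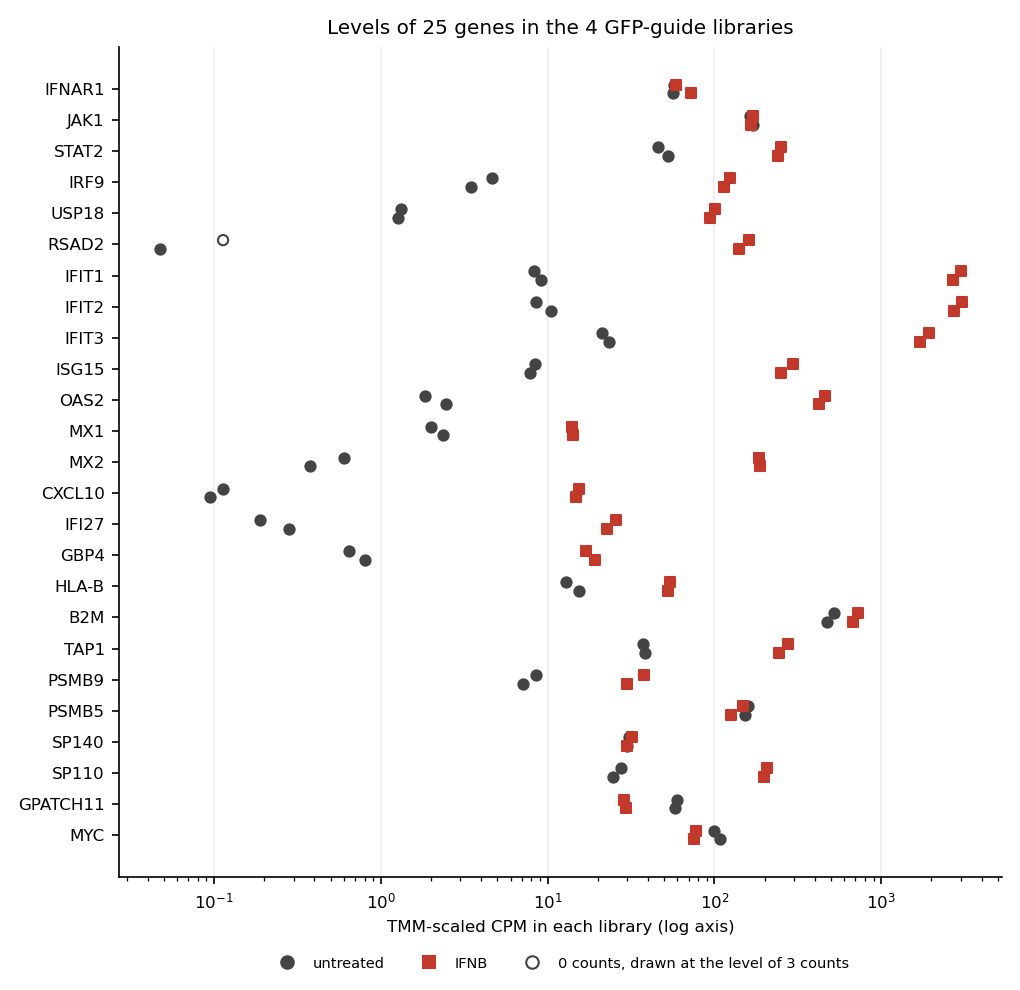
CPM of 25 genes in each of the 4 GFP-guide libraries (horizontal log axis); circles are the 2 untreated and squares the 2 IFNB libraries, and the open circle is a library with 0 counts, drawn at the level of 3 counts. STAT2, IRF9, RSAD2 and the IFIT genes separate by treatment, while JAK1 and SP140 do not.

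Among other STAT and IRF factors, 4 of 11 tested rose. BATF2, an AP-1 family factor of interferon responses, rose from 1.89 and 2.97 CPM to 82.5 and 77.3 CPM (log2 change 5.06). IRF1, an activator of many of the same target genes, rose from 29.1 and 34.2 CPM to 96.9 and 89.4 CPM (1.56), and IRF2, its relative, rose by 1.15 on the log2 scale. STAT3 rose by 0.36, from 152 and 166 CPM to 203 and 204 CPM. It kept its call without untreated replicate 2 and lost it without untreated replicate 1 (0.29, adjusted p = 0.286), IFNB replicate 1 (0.36, adjusted p = 0.0765) or IFNB replicate 2 (0.35, adjusted p = 0.101). IRF7, a factor of the later amplification loop, was listed at 0 counts in all 4 GFP libraries, where 3 counts are 0.113 to 0.149 CPM. HSPB1, a chaperone gene of most cell types, had 2 counts in the untreated and 4 in the treated pair, so a listed 0 is not read here as absence of the RNA. IRF3, STAT6 and STAT5B had log2 changes between -0.08 and 0.05.

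Inhibitors that shut the pathway down rose in part. USP18 (chr22:18149899-18177397), which blocks signalling at IFNAR2 and removes ISG15 from proteins, rose from 1.32 and 1.27 CPM to 101 and 94.8 CPM, a log2 change of 6.22 (SE 0.19, adjusted p = 1.31e-13, edgeR). SOCS1, an inhibitor of the JAK kinases, rose from 0.831 and 0.565 CPM to 3 and 2.64 CPM (log2 change 1.99). SOCS3, from the same family, stood at 26 and 25.4 CPM untreated and 27.7 and 24.8 CPM treated, so its groups overlapped (0.03, adjusted p = 0.932). TRIM21 rose (2.98), and the phosphatase genes PTPN1, PTPN2 and PTPN11, PIAS1, CISH and SOCS2 did not pass, which left 3 of 10 tested genes higher and a median of 0.06.

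The largest fitted increase was that of RSAD2, a gene of nucleotide-based restriction. RSAD2 (viperin; ENSG00000134321.12, chr2:6865806-6898239), which makes a chain-ending nucleotide, had 0 and 1 counts untreated and 6224 counts in the 2 treated libraries together, at 162 and 140 CPM. Its ratio was 7224 (95% exact interval from counting error alone, 1296 to 285379). Its neighbour CMPK2 rose from 0.265 and 0.188 CPM to 10.6 and 11.9 CPM (log2 change 5.58) and SAMHD1, which depletes nucleotides, from 25.9 and 26.4 CPM to 252 and 246 CPM (3.25). NT5C3A, the last of the 4 genes of this nucleotide list, rose by 0.46 but lost its call without any 1 of the GFP libraries: log2 changes of 0.46 and 0.44 without untreated replicates 1 and 2 and 0.50 and 0.41 without IFNB replicates 1 and 2, with adjusted p = 0.167, 0.186, 0.053 and 0.221.

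All 4 tested IFIT genes rose, with a median log2 change of 7.31. Their proteins bind viral RNA and restrain its translation. IFIT2 (ENSG00000119922.10, chr10:89283694-89309276) had the smallest adjusted p of all genes, 3.56e-18, and rose from 8.47 and 10.5 CPM to 3048 and 2752 CPM (log2 change 8.26, SE 0.11). IFIT1 (chr10:89392546-89406486) rose from 8.28 and 9.14 CPM to 3016 and 2711 CPM (8.36), IFIT3 from 21.2 and 23.3 CPM to 1925 and 1709 CPM (6.36) and IFIT5 from 31.6 and 28.0 CPM to 304 and 289 CPM (3.31). The treated libraries lay above both untreated ones in all 4 genes.

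All 4 tested genes of the OAS family rose. OAS enzymes sense double-stranded RNA and make a messenger that sets off RNA decay, while OASL lacks that activity. OAS2 rose from 1.85 and 2.45 CPM to 460 and 426 CPM (log2 change 7.70), OASL from 0.302 and 0.0942 CPM to 61.5 and 53.5 CPM (8.06), OAS1 by 4.31 and OAS3 by 3.53. Both MX genes, which encode dynamin-like GTPases that trap viral particles, rose: MX2 (chr21:41361943-41409390) from 0.605 and 0.377 CPM to 185 and 188 CPM (8.52) and MX1 from 2 and 2.36 CPM to 13.9 and 14.2 CPM (2.69).

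Of the membrane-acting factors, IFITM1 rose from 2.91 and 3.11 CPM to 84.3 and 86.5 CPM (log2 change 4.83), BST2 (tetherin, which holds budding virus at the cell surface) from 1.06 and 1.37 CPM to 21.3 and 20 CPM (4.10) and IFITM3 by 0.96, while IFITM2 did not pass (0.45). In the group of IFI6, IFI27, IFI44 and similar genes, 10 of 12 tested rose, with a median of 2.65. XAF1, a binder of the apoptosis inhibitor XIAP, rose from 0.227 and 0.141 CPM to 66.4 and 70.3 CPM (8.46). IFI27 rose from 0.189 and 0.283 CPM to 25.6 and 22.6 CPM (6.67), IFI44L by 7.54, IFI44 by 5.58 and IFI6 by 5.33. IFI27L1 and IFI27L2 did not pass, and EPSTI1 was not tested, with 9 counts in the untreated and 5 in the treated pair. IFITM genes, like the IFIT, OAS, GBP and HLA families and the pair USP18 and USP41, resemble each other in sequence, so their values are uncertain to the extent that reads were split among relatives.

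RTP4, a chaperone-like protein that restrains viral replication, rose from 0.302 and 0.707 CPM to 36.6 and 30.9 CPM (log2 change 6.10). It belongs to a list of RNA-directed effectors of which 14 of 17 tested rose, with a median of 1.69. SAMD9L and SAMD9, neighbouring genes for translation-blocking proteins, rose by 5.74 and 4.88. EIF2AK2 (PKR, the kinase that stops translation on double-stranded RNA) rose from 86.4 and 79.2 CPM to 522 and 597 CPM (2.76), and ADAR, which edits double-stranded RNA, from 291 and 285 CPM to 797 and 761 CPM (1.44). SLFN11, KHNYN and SLFN13 did not pass. All 11 tested antiviral TRIM genes rose, from TRIM26 at 0.97 to TRIM21 at 2.98, including the retroviral capsid binder TRIM5 (36.1 and 44.1 CPM to 120 and 122 CPM, 1.60). Of 5 tested APOBEC3 deaminase genes, APOBEC3F alone passed (1.76), with APOBEC3G at 1.06 and adjusted p = 0.0768. SLC15A3, a lysosomal transporter, rose by 6.16.

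Sensors of foreign nucleic acid rose with the effectors. RIGI, which senses RNA ends, went from 16.7 and 18.0 CPM to 666 and 630 CPM (log2 change 5.22, adjusted p = 3.37e-16, edgeR), IFIH1 (MDA5, a sensor of long double-stranded RNA) from 8.13 and 11.4 CPM to 230 and 228 CPM (4.57) and DHX58 (LGP2) by 4.50. Of 11 tested genes of the RNA-sensing list 8 rose, with a median of 3.22, and the 3 that did not pass were MAVS, the adaptor downstream of RIGI and IFIH1 (0.04), RIOK3 (0.09) and ZCCHC3 (-0.04). Of 8 tested genes of the DNA-sensing list 4 rose: ZBP1 (4.55), AIM2 (2.76), IFI16 (1.75) and TREX1 (1.37), which degrades DNA and is no sensor. CGAS was not tested, with 14 counts in the untreated and 7 in the treated pair. STING1 (0.36), TBK1 (0.11) and IRF3 (-0.05), the signalling steps below the DNA sensors, did not pass, nor did ZDHHC1 (-0.28).

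The ubiquitin-like protein ISG15 and the enzymes that attach it rose together. ISG15 went from 8.39 and 7.87 CPM to 297 and 250 CPM (log2 change 5.07, SE 0.23). The activating enzyme UBA7 rose by 1.41, the conjugating enzyme UBE2L6 by 2.40 and the ligase HERC5 by 4.34. HERC6, a relative of HERC5, rose by 2.58, so that with USP18 6 of 7 tested genes of the list rose. USP41, a near copy of USP18, had a log2 change of 1.56 and did not pass. Of 10 tested PARP genes and partners 7 rose: PARP9 rose from 25.2 and 23.5 CPM to 424 and 405 CPM (4.09), its partner DTX3L from 83.8 and 82.6 CPM to 706 and 718 CPM (3.10), PARP14 by 3.61, PARP12 by 2.92, PARP10 by 2.66, TIPARP by 0.72 and PARP4 by 0.61. PARP11 did not pass (0.26). PARP1 and PARP2, which act in DNA repair, had log2 changes of -0.08 and -0.09 and did not pass. PARP9 and DTX3L are neighbours on opposite strands. The sources used here do not say whether counting used strand, so reads of overlapping and antisense genes cannot be told apart.

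Guanylate-binding proteins, GTPases that attack vacuoles and membranes of intracellular pathogens, rose in 5 of the 6 GBP genes tested: GBP4 by 4.65, GBP1 by 4.38, GBP5 by 3.65, GBP3 by 3.02 and GBP2 by 2.27 on the log2 scale. GBP1 went from 16.7 and 16.5 CPM to 381 and 310 CPM, and GBP6 did not pass (1.10). With the related atlastins the list had 6 of 9 tested members higher, the last being ATL3 (0.36), which lost its call whichever GFP library was left out (adjusted p from 0.0954 to 0.325). The pseudogene GBP1P1 had 0 counts in both untreated libraries and 134 in the treated pair, at least 51.8-fold higher against 3 counts over both untreated libraries. It is related in sequence to GBP1, so its value is uncertain. Of 5 tested APOL genes, which encode channel-forming and lipid-binding proteins, 4 rose, led by APOL6 (13.5 and 15.2 CPM to 253 and 265 CPM, 4.18).

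Antigen presentation on MHC class I changed unevenly. Among 15 tested genes 9 rose, with a median log2 change of 0.54. The peptide transporter gene TAP1 rose from 37.2 and 38.4 CPM to 276 and 244 CPM (2.78, adjusted p = 2.29e-10, edgeR), TAP2 by 0.98 and NLRC5, the transactivator of class I genes, by 1.89. Of the heavy chains, HLA-B rose from 12.9 and 15.5 CPM to 54.1 and 53.1 CPM (1.92), HLA-C by 1.57, HLA-E by 1.31 and HLA-F, at most 0.113 CPM untreated, by 4.38. B2M, the shared light chain, rose from 521 and 477 CPM to 724 and 676 CPM (0.49) and lost its call without untreated replicate 2 (0.42, adjusted p = 0.118) or IFNB replicate 1 (0.44, adjusted p = 0.0514). The endoplasmic reticulum chaperones CALR, CANX and PDIA3 had log2 changes between -0.06 and 0.08 and did not pass. HLA genes are polymorphic, and reads were not assigned to this line's alleles here.

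The immunoproteasome subunits PSMB9 and PSMB8 rose, by 2.10 (8.54 and 7.16 CPM to 37.7 and 30.1 CPM) and 1.08 on the log2 scale, while the third, PSMB10, did not pass (0.57, adjusted p = 0.143). The constitutive subunits they replace, PSMB6, PSMB5 and PSMB7, had log2 changes of -0.13, -0.18 and -0.07. The proteasome activator genes PSME1 and PSME2 rose by 0.37 and 0.59. PSME1 lost its call without untreated replicate 1 or 2 or IFNB replicate 1 (adjusted p = 0.268, 0.206 and 0.228). The peptide-trimming enzymes LAP3, ERAP2 and ERAP1 rose by 1.20, 0.52 and 0.43. None of 4 tested MHC class II genes passed, with CIITA, their master regulator, at 0.189 and 0.424 CPM untreated and 1.10 and 0.895 CPM treated (1.72, adjusted p = 0.107).

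Secreted and surface signals to immune cells rose in 7 of 12 tested chemokine and cytokine genes. CXCL10 (chr4:76021117-76023497), which attracts T cells, rose from 0.113 and 0.0942 CPM to 15.4 and 14.8 CPM (log2 change 7.09). Its untreated libraries held 3 and 2 counts. CXCL11, a ligand of the same receptor, rose by 5.93. TNFSF10 (TRAIL, a death ligand) rose from 0.340 and 0.377 CPM to 23.7 and 21.3 CPM (5.96), TNFSF13B (BAFF, a B-cell survival factor) by 4.16, IL15 by 1.90, CCL2 by 1.86 and IL7 by 1.60. CCL2 lost its call without untreated replicate 1 (1.51, adjusted p = 0.183) and without IFNB replicate 2 (1.49, adjusted p = 0.144). CCL5 (0.99), IL6 (0.63) and CXCL8 (-0.71) did not pass, and CXCL9 had 0 counts in all 4 libraries. IFNB1 and the IFNA and IFNL genes listed also had 0 counts, and IFNE, the only interferon gene tested, had a log2 change of 0.27 and did not pass.

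Of 11 tested ligands of T and NK cells 5 rose, with a median of 0.71. LGALS9 rose from 1.66 and 2.21 CPM to 15.2 and 13.4 CPM (log2 change 2.89), and the checkpoint ligands CD274 (PD-L1) and PDCD1LG2 (PD-L2) by 1.20 and 0.97, CD274 from 28.6 and 27.9 CPM to 68.0 and 61.7 CPM. CD47, the signal that restrains phagocytosis, rose by 0.83 and HLA-E by 1.31. The stress ligands MICA, ULBP2 and ULBP3 did not pass. Among 15 tested cell death genes 11 rose, with a median of 0.89, among them CASP1 by 1.39, PMAIP1 (NOXA) by 1.07, MLKL by 0.91, CASP10 by 0.89, CASP8 by 0.57, CASP4 by 0.50 and RIPK1 by 0.49, and also XAF1, TNFSF10 and PHF11 (1.89). PHF11 lost its call without untreated replicate 1 or 2 or IFNB replicate 2 (2.10, 1.71 and 1.65, adjusted p = 0.131, 0.228 and 0.24). FAS (0.27), GSDMD (0.29), BCL2L11 (0.30) and TNFRSF10B (0.06) did not pass.

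SP140 (ENSG00000079263.19, chr2:230203110-230313215), the speckled-protein gene at the other line's target, stood at 30.8 and 29.8 CPM untreated and 32.0 and 29.8 CPM with IFNB in GFP-guide cells. Its groups overlapped, and the log2 change was 0.03 (SE 0.19, adjusted p = 0.966, edgeR). Its 3 relatives rose: SP110 from 27.5 and 24.8 CPM to 206 and 199 CPM (2.95), SP100 from 97.8 and 100 CPM to 285 and 287 CPM (1.53) and SP140L from 44.2 and 40.7 CPM to 83.9 and 72.9 CPM (0.88). PML, the scaffold of the nuclear bodies that hold SP100, rose from 48.3 and 55.2 CPM to 235 and 211 CPM (2.11). DAXX, ATRX and HIPK2, which act at or with the same bodies, did not pass, and 4 of the 10 tested members of the list rose. The differences of the rise between these relatives were not tested.

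Genes that rose lay near each other. Of 501 genes that rose and had a GENCODE position, 156 (31.1%) had another that rose within 100 kb, as did 30 of the 51 that rose at least 16-fold (58.8%), against 1161 of 15646 genes not past the threshold (7.42%) and 3 of 22 that fell (13.6%). Of the 156, 41 overlapped another gene that rose, where reads may be shared. The largest run was the GBP cluster at chr1:88979456-89272804, where 8 of 9 tested genes rose. They were GBP3, GBP1, GBP2, GBP4 and GBP5, with RBMXL1, PTGES3P1 (3 counts in the untreated and 46 in the treated pair) and a gene without a symbol. At chr10:89213569-89421001 LIPA, IFIT2, IFIT3, IFIT1 and IFIT5 rose, 5 of 6 tested, and LIPA, a lysosomal lipase, rose by 0.63 on the log2 scale. At chr14:24136158-24180257 PSME1, PSME2, IRF9, REC8 and an overlapping gene without a symbol rose, 5 of 8 tested. At chr6:32821833-32859585 TAP2, PSMB8, PSMB8-AS1, PSMB9 and TAP1 rose, 5 of 6 tested, with the antisense PSMB8-AS1 at 3.44.

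Among a list of less studied interferon-induced genes 28 of 37 tested rose, with a median of 1.08. HSH2D, an adaptor of lymphocyte signalling, rose from 0.227 and 0.188 CPM to 11.2 and 10.9 CPM (log2 change 5.68), TMEM140 from 0.416 and 0.518 CPM to 19.7 and 18.7 CPM (5.36) and CEACAM1, an adhesion receptor, by 2.91.

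**Figure D4:**
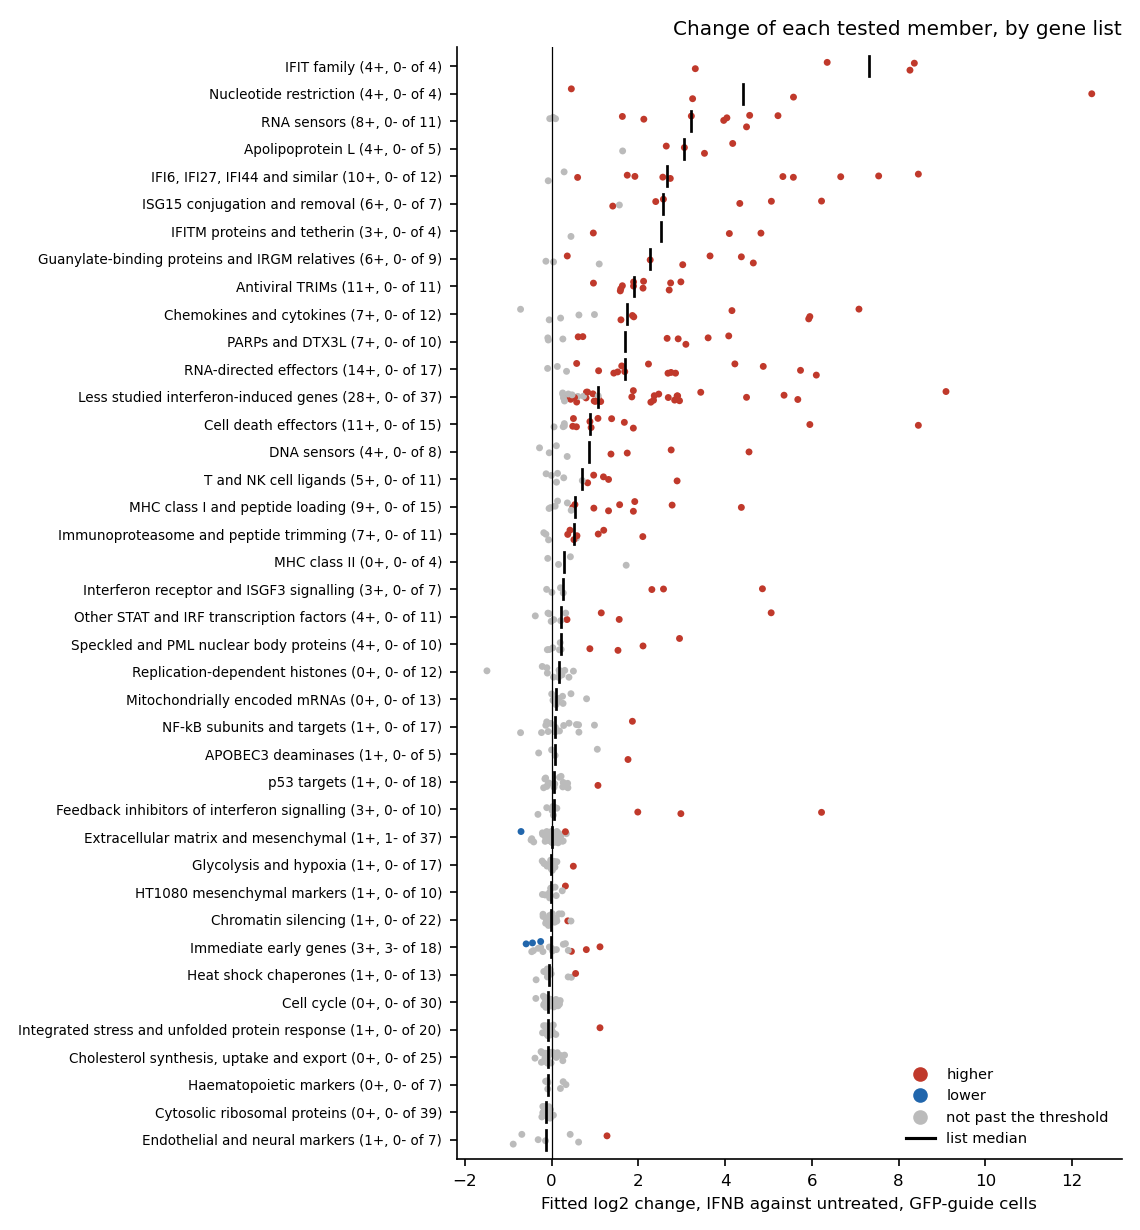
Fitted log2 change with IFNB in GFP-guide cells of each tested member (points) of the lists with at least 4 tested members (OAS list left out), with the list median as a bar and the numbers higher (+) and lower (-) beside each name. The IFIT family has the highest median, 7.31, while the APOBEC3 deaminases have a median of 0.08, and cell cycle, cholesterol and ribosomal protein genes lie near 0 with none called.

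Lists of housekeeping and stress genes held at most 1 call each at 4 h, where 3.2% of all tested genes were called. Lists this short cannot be told apart from that share. Of 30 cell cycle genes, 25 cholesterol genes, 39 cytosolic ribosomal protein genes, 13 mitochondrially encoded mRNAs and 12 replication-dependent histone genes, none passed. Ribosomal protein genes had a median of -0.12 and 38 of 39 were negative, while the 13 mitochondrially encoded mRNAs had a median of 0.10 and all 13 were positive. The list medians of p53 targets (0.07, 1 of 18 rose, PMAIP1), integrated stress and unfolded protein response genes (-0.08, 1 of 20, ATF3), heat shock chaperones (-0.06, 1 of 13, DNAJA1), glycolysis and hypoxia genes (-0.0048, 1 of 17, HK2) and chromatin silencing genes (-0.02, 1 of 22, MORC3) lay near that of all genes. Of 17 tested NF-kB subunits and targets CCL2 alone rose, with NFKBIA at 0.28 and TNFAIP3 at -0.02. Several of these single calls were lost when 1 library was left out: MORC3 (0.37) without any of the 4, with adjusted p from 0.0873 to 0.313, ATF3 (1.12) without any of the 4, from 0.0944 to 0.205, and HK2 (0.50) without untreated replicate 2 (0.44, adjusted p = 0.0861) or IFNB replicate 1 (0.36, adjusted p = 0.0842). Of 37 tested genes of the extracellular matrix and mesenchymal list, 1 rose, CAV1 (0.32), and 1 fell, SNAI2 (-0.70). CAV1 lost its call without untreated replicate 1 or 2 or IFNB replicate 2 (log2 changes of 0.32, 0.31 and 0.30).

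Immediate early genes, which respond first to growth factors and stress, moved in both directions: 3 of 18 tested rose and 3 fell. KLF6 rose from 429 and 457 CPM to 762 and 784 CPM (log2 change 0.80), IER2 by 0.46 and ATF3 by 1.12. MYC, the growth regulator, fell from 99.1 and 108 CPM to 77.6 and 75.1 CPM (-0.44, SE 0.10, adjusted p = 0.0208, edgeR), EGR1 from 6.77 and 7.68 CPM to 4.34 and 5.27 CPM (-0.59) and IER3 from 157 and 150 CPM to 131 and 127 CPM (-0.25). IER2 lost its call without untreated replicate 2 (0.44, adjusted p = 0.0713) and IFNB replicate 1 (0.36, adjusted p = 0.0924). MYC, EGR1 and IER3 lost theirs whichever of the 4 GFP libraries was left out, with adjusted p from 0.0571 to 0.253 for MYC, 0.0604 to 0.36 for EGR1 and 0.125 to 0.425 for IER3. FOS, FOSB, JUN and JUNB did not pass.

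Of the 22 decreases, 4 were at least 2-fold: those of GPATCH11, NUDT4B and 2 genes without a symbol. GPATCH11 (ENSG00000152133.15, chr2:37084451-37099244), which encodes a G-patch domain protein, fell from 59.6 and 58.5 CPM to 28.8 and 29.6 CPM, 49.5% of its untreated mean (log2 change -1.02, SE 0.10, adjusted p = 1.70e-06, edgeR). It was the 1 gene of the 22 that kept its call without each GFP library in turn. With untreated replicate 1 left out 7 genes fell, with untreated replicate 2 left out 4 did, and leaving out IFNB replicates 1 and 2 gave 13 and 9. SNAI2, a repressor of epithelial genes, fell from 11.5 and 12.1 CPM to 6.67 and 7.76 CPM (-0.70), and SDHAF1, an assembly factor of mitochondrial complex II, from 7.6 and 8.34 CPM to 4.29 and 5.27 CPM (-0.74). ENC1, an actin-binding protein, fell by 0.47 on the log2 scale, NUDT4B by 1.22, SIPA1L2 by 0.76, OXLD1 by 0.66, ATXN7L2 by 0.53, GPR39 by 0.53, ZNF324B by 0.53, OTUD3 by 0.51, ACTR3B by 0.46 and CYREN by 0.42. For these 12 genes the highest adjusted p without 1 library ran from 0.138 (SDHAF1, without IFNB replicate 1) to 0.394 (CYREN, without IFNB replicate 2). SDHAF1 had a log2 change of -0.60 and CYREN of -0.35 in those fits.

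The same treatment was measured in LTR8B-guide cells, in a contrast that shares no library with that of the GFP-guide cells. Both contrasts came from 1 fit with the same filter, scaling and estimate of spread, so passing in both lines is not a pair of independent tests. Of the 502 genes that rose in GFP-guide cells, all 502 had a positive log2 change in LTR8B-guide cells and 453 passed there (90.2%, or 68.8% of the 658 that rose in that line), against 4.01% of all tested genes that rose in LTR8B-guide cells. Of the 22 that fell, 20 were negative and 10 passed (45.5%, or 12.7% of the 79 that fell in that line), against 0.482% of all tested genes. Across the 502 genes the median log2 change was 0.97 in GFP-guide and 0.87 in LTR8B-guide cells, the GFP value being the larger in 359 of them. The genes were chosen on the GFP value, which favours it. As a description across genes, which are not independent replicates, the 2 lines had Pearson's r = 0.982 and Spearman's rho = 0.942. The response of SP140L was 0.88 in GFP-guide and 0.97 in LTR8B-guide cells, and that of GPATCH11 was -1.02 and -0.88.

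**Figure D5:**
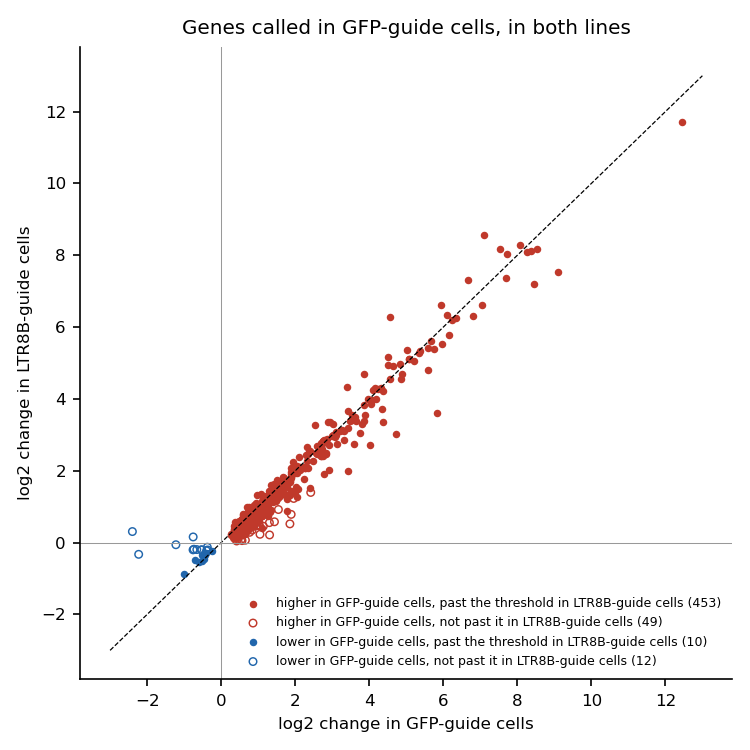
log2 change with IFNB of the 524 genes called in GFP-guide cells, in GFP-guide (horizontal axis) against LTR8B-guide cells (vertical axis), with filled points past the threshold in both lines and the dashed line marking equal values. Points that rose lie along the line, 453 of 502 filled, and 10 of the 22 that fell are filled.

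The difference between the 2 responses passed for no gene, 0% of the 16393 tested, with edgeR, DESeq2 or limma-voom. The smallest adjusted p was 0.996 (edgeR). An unadjusted p under 0.05 (edgeR) was found for 489 of the 16393 genes, fewer than that threshold would pass if no gene differed. Of the 489, 43 were among the 524. Those 524 were chosen on the GFP response, which is part of the difference, so the 43 are not read as a result. The 5 genes that led the difference were chosen by their rank in this test. KMT2D, a histone methyltransferase, had log2 changes of 0.09 in GFP-guide and -0.23 in LTR8B-guide cells, a difference of 0.33 (SE 0.08). ZBTB20 had 0.48 and -0.18, a difference of 0.66 (SE 0.17). ZBTB20 did not pass in GFP-guide cells, but did without IFNB replicate 1 (0.62, adjusted p = 0.0352). The pseudogene LSP1P4 had 0.47 and -0.32, a difference of 0.80 (SE 0.21). The other two have no symbol: a protein-coding gene at chr15:90966190-91022566 fell by 0.76 in GFP-guide cells and had 0.16 in LTR8B-guide cells, a difference of -0.91 (SE 0.19), and another at chr16:71447600-71489311, under 2 CPM throughout the GFP libraries, fell by 2.40 against 0.31, a difference of -2.71 (SE 0.66). In GFP-guide cells the first lost its call without untreated replicate 1 (-0.73, adjusted p = 0.0914) or IFNB replicate 2 (-0.66, adjusted p = 0.147), and the second without any of the 4 libraries (adjusted p from 0.0641 to 0.298). Among genes that rose in GFP-guide cells the differences had either sign. They were 0.18 (SE 0.12) for IFIT2, 0.31 (SE 0.18) for IRF9, 0.34 (SE 0.13) for SAMD9L and 1.25 (SE 0.67) for XAF1, but -0.40 (SE 0.12) for SP110, -1.47 (SE 0.91) for CXCL10 and -1.74 (SE 0.81) for ZBP1, each with adjusted p = 0.996 (edgeR). SP110 overlaps SP140 on the chromosome and stood at 26.2 CPM in untreated GFP-guide and 17.0 CPM in untreated LTR8B-guide cells. With IFNB it stood at 202 and 174 CPM. Whether its lower start bears on its difference was not tested. XAF1, CXCL10 and ZBP1 had at most 6 counts in each untreated GFP library. A p that misses the threshold does not show that the lines responded alike.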

How the data were processed

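The authors deposited whole-number counts per gene for 12 libraries. Per the submitters' processing notes Salmon 0.13.1, DESeq2 1.38.3 and hg38 were used, with no role or order given. The sources used here do not state filters, strand use or rounding before deposit. A second deposited table was not used. Of 60669 identifiers, 25271 had 0 counts in all libraries. Symbols came from a table of gene names and positions from GENCODE on hg38. Of the tested genes 14805 had a symbol and 16169 a position.

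Low counts were removed with filterByExpr over the 4 groups (minimum count 10, minimum total 15), leaving 16393 genes. Counts were scaled by TMM and fitted with edgeR 4.0.16 (quasi-likelihood, robust) in R 4.3.3 on all 12 libraries with 1 mean per group, so the spread is shared with the LTR8B-guide libraries. The contrasts were IFNB against untreated in each line and their difference, with Benjamini-Hochberg adjustment over the tested genes at 0.05. The code was tested on simulated data. A count of 0 allows 3 counts, and intervals (95%, exact) cover counting error only. The 2 untreated GFP libraries differed by a chi-square of 4.44 per degree of freedom and the IFNB pair by 8.76, more than sampling noise.

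The text names SP140 and its relatives, the receptor and ISGF3 list, the 15 largest increases and 15 largest decreases among genes that passed, had a symbol, averaged at least 1 CPM and did not overlap between groups, the 10 smallest adjusted p, up to 4 leading members of each of 44 lists and the 5 leading genes of the difference. Other genes were added from the lists after their values were seen, and some genes of the rule are not reported here. The members and lists were chosen with earlier results of these data known. Alternatives were DESeq2 1.42.0, limma-voom (limma 3.58.1), the GFP libraries alone, RLE factors, total counts, other filters, a replicate block and leaving out each GFP library.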

Additional observations from a re-analysis of the deposited data

How the results depend on the processing

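Over 12 alternatives the increases held better than the decreases. Genes named by rule were picked largely for the size or the adjusted p of their change in these data, which favours the named increases. Of 133 genes named by rule 116 passed, 99 higher and 17 lower; 92 passed under every alternative that gave a value, 91 higher and 1 lower (GPATCH11), and none reversed. Without each GFP library in turn 294 of the 502 increases, 202 of the 247 of at least 2-fold and 1 of the 22 decreases kept their call. With a library left out its group is 1 sample, assumed to vary like the others. The number of genes called then ran from 344 to 459, of genes lower from 4 to 13, of genes lower by at least 2-fold from 2 (without untreated replicate 2) to 5, and of genes called in the difference between lines from 0 to 1 (without untreated replicate 1).

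Genes lower numbered 38 with total counts only and 54 with no low-count filter, against 22, and genes lower by at least 2-fold numbered 11 with only the GFP libraries in the fit and 14 with no filter, against 4. With no filter 13 genes passed in the difference, where more low-count genes are tested. Scaling moved the median of all genes by at most 0.04 on the log2 scale. With a replicate block 83 genes were lower, 12 of them by at least 2-fold, 664 were higher and 4 passed in the difference. The GFP groups share only 2 replicate numbers, whose deviations had a correlation of 0.145 over 13813 genes, so the numbers are not taken as pairs. Of 528 counts of list members recomputed, 43 moved by over 1.5 times; the cause was not tested. The 2 libraries a group limit what small changes can be seen, and genes under about 1 CPM rest on few counts.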
